A study of Mus musculus with 16 samples.

Results

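The genes examined here encode enzymes and complex subunits that move nucleosomes or that write and remove marks on histones and DNA. Members were taken by symbol from the genes present in both expression tables, namely the Smarca to Smarce genes, Arid1 to Arid5, Kmt2 and Kmt5, Kdm1 to Kdm8, Dnmt, Tet, Hdac and Chd genes with Ezh1, Ezh2, Eed, Suz12, Ep300 and Crebbp. The rule found 79 genes of 24063. They comprised 17 subunits and ATPases of the SWI/SNF and ISWI families (the pseudogene Smarca5-ps, Smarcad1 and Smarcal1 included), 9 Chd genes, 6 further Arid genes, 5 Kmt2 genes, 18 lysine demethylases, 4 core genes of Polycomb repressive complex 2 (PRC2), 7 genes of DNA methylation, and 13 genes of histone acetylation. No gene with a Kmt5 symbol was among them, as the tables list those enzymes under older symbols.

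RNA was measured in AtT-20, a mouse pituitary corticotroph line that makes Pomc, the precursor of adrenocorticotropic hormone. The study asked how gene expression changes when Pax7, the transcription factor that specifies the intermediate lobe fate of pituitary cells, is placed in these cells. Neo cells carried 3x flag-Neo as the control and Pax7 cells carried 3x flag-Pax7, each untreated and with 2 libraries. ER-Pax7 cells carried 3x flag-ER-Pax7, in which Pax7 is joined to a hormone-binding part of an oestrogen receptor, and were either left without induction (0 h) or given 4-hydroxytamoxifen for 12 h, 24 h or 96 h, with 3 libraries at each time. All 16 libraries came from total RNA freed of ribosomal RNA. The 0 h cells already contained the fusion protein's transcript, and no tamoxifen-treated cells without ER-Pax7 were among the samples used here, so effects of the drug and of the fusion cannot be told apart. The labels do not say whether the lines were clones or pools, nor whether replicates were separate cultures, so p-values measure only the spread between these libraries, which may be technical.

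Chromatin regulators work in opposing sets. SWI/SNF, ISWI and CHD enzymes use ATP to slide, evict or space nucleosomes. PRC2 methylates histone H3 at lysine 27 and is associated with silencing, KMT2 enzymes methylate lysine 4 at promoters and enhancers, and KDM enzymes remove such marks. A pioneer factor such as Pax7 binds sites in closed chromatin, and enzymes of this kind carry out the opening of such sites.

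Recovered read totals were 61374368 to 88697874 per ER-Pax7 library, and the values below are exon reads scaled to a common total of 7213569 to 7213579 per library, called scaled reads; levels of single libraries are given after division by a TMM factor (0.958 to 1.05), which corrects for composition. The Neo and Pax7 libraries were deposited as FPKM (fragments scaled by gene length and library size) counted over whole gene bodies, introns included, so levels cannot be compared across the 2 tables. Pax7 was listed at 0 in Neo and reached 2.39 FPKM in Pax7 libraries, and all ER-Pax7 libraries, those at 0 h included, had 1653 to 1911 scaled reads of Pax7 and 1064 to 1296 of Esr1, which encodes an oestrogen receptor and was listed at 0 in the Neo and Pax7 libraries. Reads of the 6 corticotrope markers were chiefly those of Pomc, at 2390 to 2471 FPKM and 73885 to 95211 scaled reads. The 6 markers summed to 2444 to 2522 FPKM in Neo and to 2455 to 2512 in Pax7 cells. Over time they summed to 102879 to 107946 scaled reads at 0 h, 92513 to 97332 at 12 h, 85942 to 87755 at 24 h and 102172 to 109923 at 96 h, so the libraries at 12 h and 24 h lay below those at 0 h. The part of this shift in the values of chromatin genes was not tested. Markers of other cells were low, their summed scaled reads being 17.7 to 32.0 for 5 fibroblast genes (chiefly Col1a1, at 16.4 to 28.3), 6.60 to 11.2 for 3 immune genes (chiefly Cd68), 1.03 to 4.39 for 3 endothelial genes and 1.38 to 4.94 for 7 genes of other pituitary cells. Prl, Tshb, Fshb and Cd3e were at 0 in all ER-Pax7 libraries. One library, the second at 12 h, stood apart in ribosomal RNA, with Rn45s at 2.35% of reads against 0.753% to 1.26% in the other ER-Pax7 libraries.

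Most of these genes stayed near their starting level, and no fitted fold reached 2 in any comparison. At 12 h, 9 of 76 tested members rose and 0 fell (limma, adjusted p under 0.05), against 6.53% of all 15188 genes tested (2.92% higher, 3.61% lower). At 24 h, 11 of 76 rose and 0 fell, beside 13.6% of all genes (5.66% higher, 7.92% lower). At 96 h, 13 rose and 8 fell of 76, beside 33.8% of all genes (16.5% higher, 17.3% lower). In Pax7 against Neo cells 18 rose and 4 fell of 72, beside 36.6% of 13393 genes (18.1% higher, 18.5% lower). Of these 18, Arid3a passed the filter on low values only through its Pax7 libraries, so its direction there was set by the filter. Members called made up 11.8% at 12 h, 14.5% at 24 h, 27.6% at 96 h and 30.6% in Pax7 cells, so that all but the 12 h share lay near or below the background. The 12 h count was 5 without the second 0 h library and 6 without the second 12 h library, the one high in Rn45s. In Pax7 against Neo fewer members were called without any 1 library, and calls over all genes fell as well. Calls that held whichever single library was left out numbered 4 at 12 h, 9 at 24 h and 14 at 96 h. In Pax7 cells only those of Arid5b, Ezh1 and Hdac11 held. The same counts over all genes were not made, so these do not set the members apart.

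Over the 4 times together 24 members changed, beside 30.3% of all genes (13.8% higher, 16.5% lower), 16 of them with their largest difference from 0 h upward and 8 downward. From 12 h to 24 h limma called 0 members, beside 0.158% of all genes (0.0724% higher, 0.0856% lower); 2 members passed an unadjusted p of 0.05 and both edgeR and DESeq2 on the recovered reads also called 0. From 24 h to 96 h 7 members fell and 0 rose, beside 12.6% of all genes, 6.03% higher and 6.62% lower (2 members were higher at an unadjusted p of 0.05, and edgeR and DESeq2 called 0 higher). That count was 1 to 3 without the first or second 24 h library or any 1 of the 96 h libraries. Calls over all genes in those fits numbered 1260 to 1732, against 1921. Over the 4 times the member count was 15 without the second 96 h library, with 3541 calls over all genes against 4600. The absence of lower calls at 12 h and 24 h was by limma and edgeR, with 1 and 4 members lower at an unadjusted p of 0.05, and DESeq2 called 0 and 2. The 12 h, 24 h and 96 h comparisons share the 3 libraries at 0 h, so calls that recur across them are not separate evidence.

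Stability was read from the width of the 95% interval of each log2 fold, since a p that misses a threshold does not show that a gene held its level. At 12 h the interval lay wholly within 1.2-fold of no change for 60 of 76 members (78.9%), against 63.2% of all genes tested. The counts were 55 (72.4%, all genes 58.6%) at 24 h and 54 (71.1%, all genes 47.7%) at 96 h. Pax7 against Neo, with 2 libraries a group, gave 32 of 72 members (44.4%), beside 37.1% of all genes. Intervals were also narrower for members, with a median distance from centre to bound of 0.099 log2 units at each time against 0.12 for all genes. With a bound of 1.5-fold, 73 of 76 members lay inside at each time and 67 of 72 in Pax7 against Neo. In 41 of the 79 members no comparison gave a call, and 34 of those 41 were tested in both tables. The 41 include Dnmt3l, Smarca1 and Kdm5d, which were tested in neither. The same count over all genes was not made, so this number does not set the members apart.

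**Figure D1:**
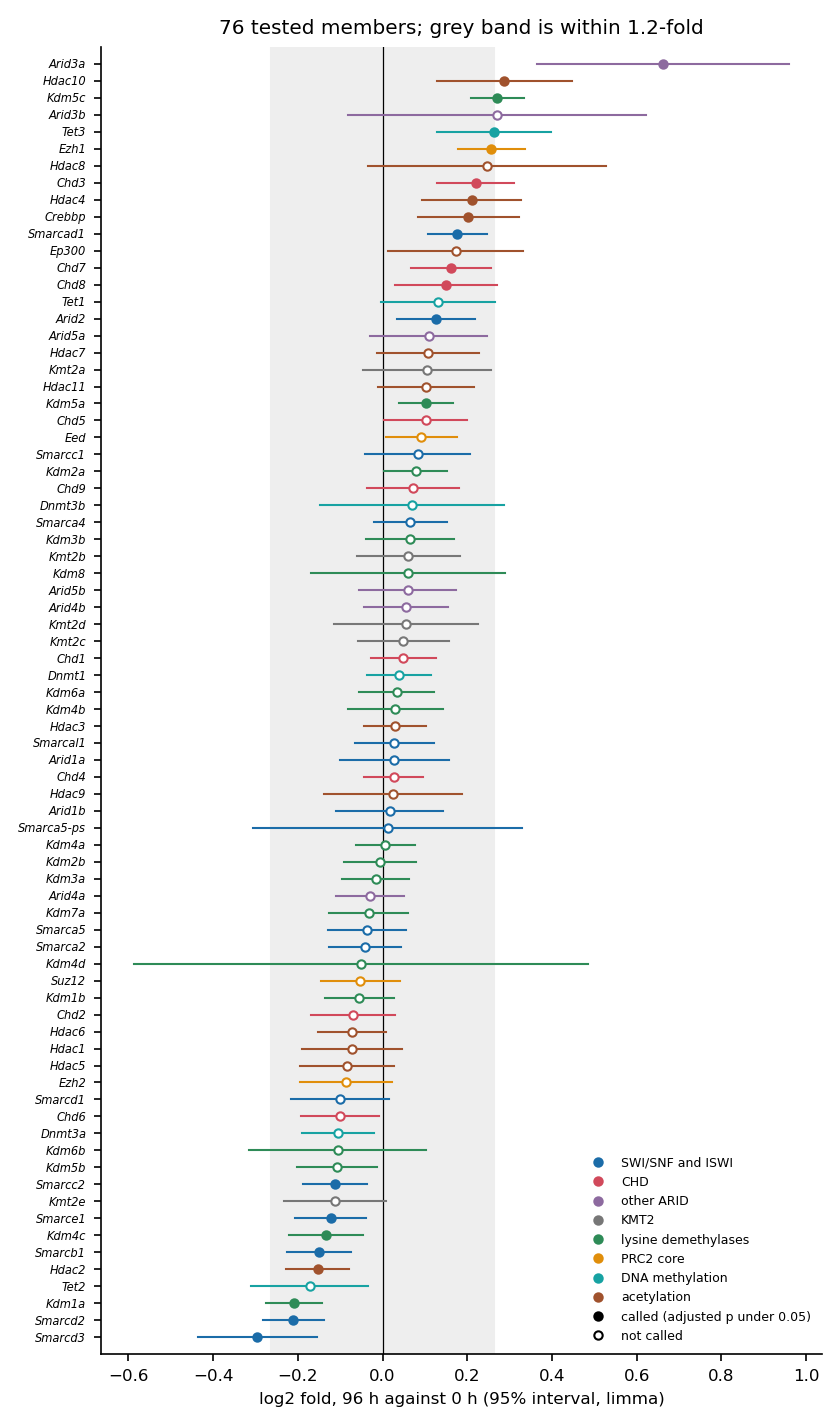
Log2 fold of each of the 76 tested members at 96 h against 0 h, with the 95% interval from limma. Colours give the group, filled points passed an adjusted p of 0.05, and the grey band marks 1.2-fold in either direction; 54 intervals lie wholly inside the band.

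At 0 h the members spanned a wide range of levels per kilobase of exon. Hdac2, a class I histone deacetylase, was highest at 1088 ± 24.6 scaled reads per kb (SD, n = 3), followed by the maintenance DNA methyltransferase Dnmt1 at 898 ± 38.1. Chd4, the ATPase of the NuRD complex, stood at 897 ± 22.0 and the lysine demethylase Kdm1a at 829 ± 7.83. Dnmt1 and Chd4 did not differ beyond their spread, whereas Hdac2 lay above both and Kdm1a below both by more than 1 SD of either. Among remodellers Smarcd2 (660.4 ± 28.9), Smarca5 (632 ± 31.0) and Smarcb1 (599 ± 18.5) came next. At the low end, Arid3a stood at 2.98 ± 0.252 scaled reads per kb and Arid3b at 3.23 ± 0.953.

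**Figure D2:**
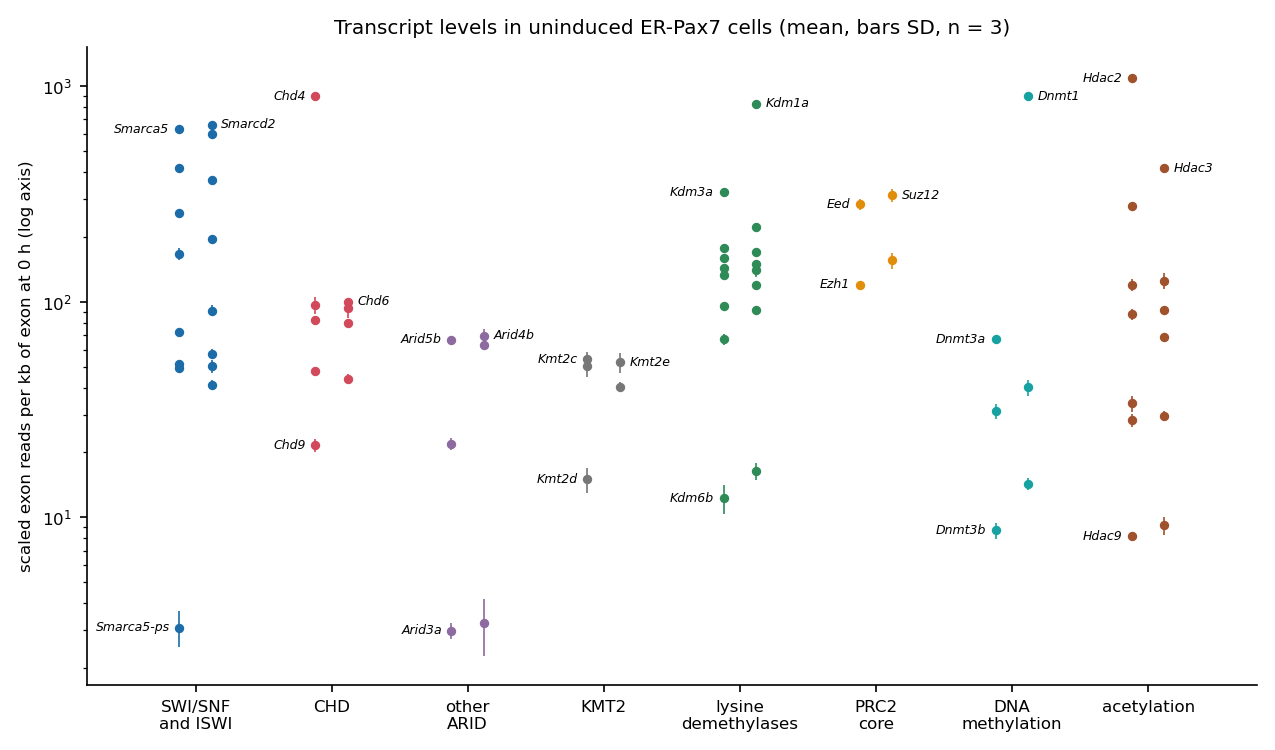
Level of each member in uninduced ER-Pax7 cells in scaled exon reads per kb of exon (log axis), by group; points are means and bars the SD of 3 libraries, with the highest and lowest genes of each group named. Kdm4d, Smarca1, Dnmt3l and Kdm5d lie under 1 scaled read per kb and are not drawn.

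Of the 79 members, 76 passed the filter on low values in the ER-Pax7 table and 72 in the Neo and Pax7 table. Dnmt3l (a cofactor without catalytic activity), Smarca1 (an ISWI ATPase) and the Y-linked demethylase Kdm5d passed neither. Dnmt3l reached at most 0.20 scaled reads and Smarca1 at most 0.57, while Kdm5d was listed at 0 in all 16 libraries. Hdac8, Hdac9, Kdm4d and Arid3b were tested over time only, as their deposited gene-body FPKM was 0.03 to 0.10. Arid3a passed the FPKM filter through its Pax7 libraries alone and so had to differ there.

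Of the 2 PRC2 methyltransferases, Ezh1 rose in Pax7 cells and at each time, and Ezh2 fell in Pax7 cells and was not called over time. Ezh1 (NM_007970, mm10 chr11:101191115-101226450, minus strand), the paralogue common in non-dividing cells, had scaled reads of 510.2, 509.6 and 484 at 0 h, 609, 648 and 602 at 12 h, 653, 651 and 629 at 24 h, and 599, 607 and 591 at 96 h. All 9 induced libraries lay above all 3 uninduced ones. Ezh1 rose 1.24-fold at 12 h (log2 0.31, SE 0.038, adjusted p = 1.55e-05, limma), 1.29-fold at 24 h (log2 0.36, SE 0.038, adjusted p = 8.97e-07) and 1.19-fold at 96 h (log2 0.26, SE 0.038, adjusted p = 2.48e-05). Its FPKM was 2.05 and 2.06 in Neo and 2.54 and 2.52 in Pax7 cells. These groups did not overlap, and the difference of 1.22-fold passed (log2 0.29, SE 0.031, adjusted p = 0.00772). Groups without overlap were common, with 9887 of all 13393 genes in Pax7 against Neo and 6977 of 15188 at 96 h against 0 h.

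Ezh2 (NM_007971, mm10 chr6:47530274-47595030, minus strand), the paralogue of dividing cells, had scaled reads of 374, 412 and 442 at 0 h, 408, 428 and 428 at 12 h, 437, 406 and 422 at 24 h, and 368, 391 and 395 at 96 h. Its libraries at 96 h and 0 h overlapped, and no time passed the test (96 h log2 -0.086, 95% interval -0.19 to 0.021, adjusted p = 0.214, limma). In Neo cells it had 0.687 and 0.741 FPKM and in Pax7 cells 0.564 and 0.565. Ezh2 thus fell with Pax7 (log2 -0.29, SE 0.053, adjusted p = 0.0219), with no overlap between the groups. Within libraries the ratio of Ezh2 to Ezh1 per kb of exon was 1.16 to 1.45 at 0 h and 0.976 to 1.06 at 96 h. The same ratio in gene-body FPKM was 0.335 to 0.36 in Neo and 0.222 to 0.224 in Pax7 cells.

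Suz12, the scaffold subunit that PRC2 needs for activity, fell in Pax7 cells, from 2.89 and 2.87 FPKM in Neo to 2.58 and 2.44 (log2 -0.19, SE 0.04, adjusted p = 0.0307). It was not called at any time (96 h log2 -0.052, interval -0.14 to 0.04). Eed, which reads the methyl mark that PRC2 places, passed in no comparison (Pax7 against Neo log2 -0.12, 96 h log2 0.092). The Suz12 difference was lost without any 1 of the 4 libraries and that of Ezh2 without 3 of the 4, with adjusted p of 0.06 to 0.104 and 0.0806 to 0.0858, while Ezh1 stayed called. Scaling to library totals in place of TMM factors also ended the Suz12 call (log2 -0.12, adjusted p = 0.228). Cell cycle genes moved beside them in the same cells, with 15 of 25 lower, 4 higher and a median log2 of -0.24 in Pax7 against Neo. Over all genes 18.5% were lower there and 18.1% higher. At 12 h 0 of 25 were called (6.53% of all genes). At 96 h 4 were lower and 4 higher (17.3% and 16.5% of all genes). The part of cell division in the PRC2 differences was not tested.

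The 250 bases upstream of the RefSeq start (GRCm38.p6) are shown for Ezh1 and Kdm5c and for Ezh2 as the paralogue of Ezh1. Ezh1, Kdm5c and Chd3 were called in all of the 12 h, 24 h, 96 h and Pax7 comparisons and kept in each of the 3 time comparisons when any 1 library was left out. No promoter was matched for Chd3. Each runs 5′ to 3′ on the gene's strand, with every CG dinucleotide in capitals.
Ezh1 (chr11:101226464-101226713, minus strand): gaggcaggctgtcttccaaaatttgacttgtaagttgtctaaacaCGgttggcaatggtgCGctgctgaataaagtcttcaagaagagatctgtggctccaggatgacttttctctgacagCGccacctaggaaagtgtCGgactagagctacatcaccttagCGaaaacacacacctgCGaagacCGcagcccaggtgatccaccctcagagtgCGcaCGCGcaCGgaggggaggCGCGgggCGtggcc
Ezh2 (chr6:47595031-47595280, minus strand): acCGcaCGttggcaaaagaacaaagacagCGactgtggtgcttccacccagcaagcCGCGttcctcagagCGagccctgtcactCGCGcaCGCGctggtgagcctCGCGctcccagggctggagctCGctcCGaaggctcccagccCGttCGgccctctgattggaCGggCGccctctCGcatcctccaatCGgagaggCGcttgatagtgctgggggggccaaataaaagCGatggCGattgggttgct
Kdm5c (chrX:152232977-152233226, plus strand): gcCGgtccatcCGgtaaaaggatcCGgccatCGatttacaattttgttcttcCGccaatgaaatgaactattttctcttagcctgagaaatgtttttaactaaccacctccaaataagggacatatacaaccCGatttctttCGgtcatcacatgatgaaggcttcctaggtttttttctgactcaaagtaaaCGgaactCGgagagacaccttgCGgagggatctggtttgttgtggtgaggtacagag
Ezh2 held 23 CG dinucleotides in this window, Ezh1 held 14 and Kdm5c held 10. Promoters were matched for 60 members, with a median of 20.5 CG (0 to 56) against 15 in the 11076 tested genes with a promoter in the table. On either strand the homeodomain core TAATTA occurred in 0 of the 60 member windows and in 2.35% of the tested genes, and the paired-domain core GTCACG in 8 of 60 (13.3%) and 11.3%. None of the 3 windows shown held either word. Such matches describe the letters only.

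Among the lysine demethylases, Kdm5a and Kdm5c, which remove methyl groups from lysine 4, rose over time, and their relative Kdm5b fell from 24 h to 96 h. Kdm5c (NM_013668, mm10 chrX:152233227-152279099, plus strand) had scaled reads of 1753, 1729 and 1760.2 at 0 h, 1994, 2020.4 and 1965 at 12 h, 2044, 2040.2 and 1982 at 24 h, and 2116, 2112 and 2099.8 at 96 h. Every induced library exceeded every uninduced one. Kdm5c rose at each time, from 1.14-fold at 12 h (log2 0.19, SE 0.03, adjusted p = 0.000259, limma) to 1.21-fold at 96 h (log2 0.27, SE 0.03, adjusted p = 5.81e-07). Its FPKM was 4.32 and 4.14 in Neo and 5.21 and 5.24 in Pax7 cells. That difference also passed (log2 0.30, SE 0.035, adjusted p = 0.00895), though not without the second Pax7 library (adjusted p = 0.055).

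Kdm5a rose by less, with scaled reads of 1532, 1572 and 1595 at 0 h, 1712, 1726 and 1695 at 12 h, 1724, 1733 and 1745 at 24 h, and 1657, 1701 and 1685 at 96 h. Its log2 fold was 0.13 at 12 h (SE 0.03, adjusted p = 0.0115), 0.15 at 24 h and 0.10 at 96 h (SE 0.03, adjusted p = 0.0132, limma). The 12 h call was lost without the first 0 h or the first 12 h library (adjusted p 0.0511 to 0.0549), and the 96 h call without the second 96 h library (adjusted p = 0.0623). Kdm5b had scaled reads of 908, 923 and 971 at 0 h, 1051, 1090.0 and 966 at 12 h, 938, 1031 and 1002 at 24 h, and 864, 896 and 841 at 96 h, with the highest mean at 12 h and the lowest at 96 h. The step from 24 h to 96 h passed (log2 -0.19, SE 0.046, adjusted p = 0.00775, limma), as did the test over the 4 times (adjusted p = 0.00104), while no time was called against 0 h. Without the second 24 h library the step gave an adjusted p of 0.0505. Kdm5d, on the Y chromosome, was listed at 0 throughout.

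Kdm1a, the flavin-dependent demethylase of lysine 4 in CoREST complexes (mm10 chr4:136550533-136602723, minus strand), had scaled reads of 2497, 2495 and 2455 at 0 h, 2415, 2443 and 2325 at 12 h, 2292, 2375 and 2323 at 24 h, and 2146, 2173 and 2122 at 96 h. The 96 h libraries were the lowest of all 12 and did not overlap those at 0 h. Kdm1a fell 1.16-fold by 96 h (log2 -0.21, SE 0.032, adjusted p = 2.90e-05, limma) and between 24 h and 96 h (log2 -0.12, SE 0.032, adjusted p = 0.0166), the second call being lost without any 1 of 3 libraries (adjusted p 0.0501 to 0.0822). In Pax7 cells it was not called, with 5.31 and 5.41 FPKM in Neo and 5.32 and 5.44 in Pax7 (log2 0.0039, interval -0.081 to 0.088). The difference between the 2 systems was not tested. Kdm4c, which acts on lysine 9, fell at 96 h (log2 -0.13, SE 0.042, adjusted p = 0.0176), a call lost without 2 single libraries.

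Of 16 demethylases tested in Pax7 against Neo, Kdm5c, Kdm2a (log2 0.16, SE 0.033, adjusted p = 0.0307), Kdm3a (log2 0.20, SE 0.031, adjusted p = 0.015) and Kdm4a (log2 0.18, SE 0.043, adjusted p = 0.0385) rose and 0 fell by limma (0 also at an unadjusted p of 0.05), beside 18.1% higher and 18.5% lower of all genes. Each of Kdm2a, Kdm3a and Kdm4a lost its call without any 1 library. The lysine 27 demethylases were not called in any comparison, with 96 h log2 folds of 0.033 for Kdm6a (interval -0.055 to 0.12) and -0.11 for Kdm6b (interval -0.31 to 0.10). Kdm1b, Kdm2b, Kdm3b, Kdm4b, Kdm4d, Kdm7a and Kdm8 were likewise called nowhere, with 96 h values from -0.055 (Kdm1b) to 0.065 (Kdm3b). In all, 14 of 17 demethylases at 12 h and 13 of 17 at 24 h had an interval within 1.2-fold, beside 63.2% and 58.6% of all genes.

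**Figure D3:**
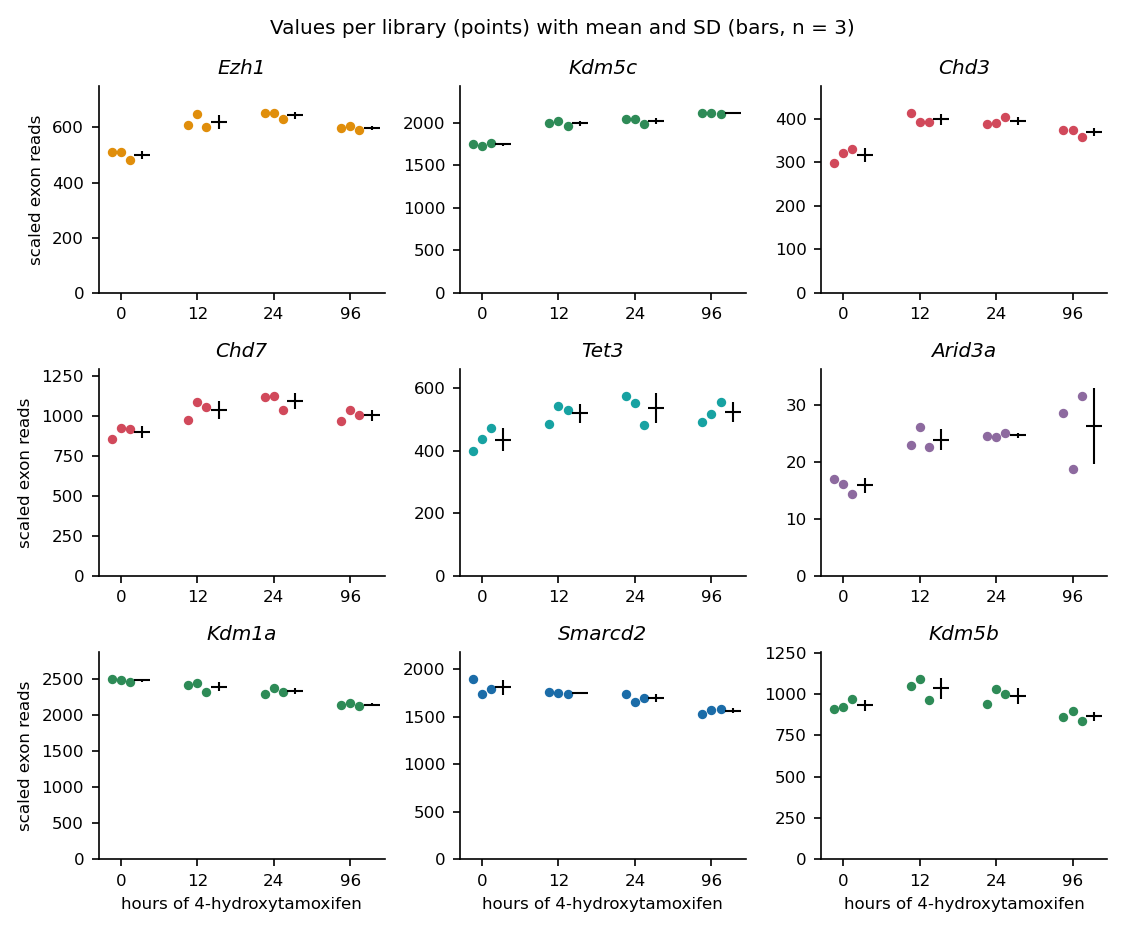
Scaled exon reads of 9 members in each ER-Pax7 library (points) against hours of 4-hydroxytamoxifen, with the mean and SD of 3 libraries (bars); each vertical axis starts at 0. Ezh1 and Kdm5c lie above 0 h in all 9 induced libraries, and Kdm1a and Smarcd2 are lowest at 96 h.

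The 5 Kmt2 methyltransferases, which place lysine 4 methylation, gave 0 calls in every comparison by limma, and edgeR on the recovered reads also gave 0 at each time. Over all genes limma called 6.53% at 12 h, 13.6% at 24 h, 33.8% at 96 h and 36.6% in Pax7 against Neo. At an unadjusted p of 0.05 none passed at 12 h or 96 h, 2 were higher at 24 h and 1 was higher in Pax7 cells. DESeq2 on the recovered reads called 1 lower from 24 h to 96 h and 0 elsewhere. Log2 folds at 24 h ran from 0.058 (Kmt2e) to 0.17 (Kmt2d), and at 96 h from -0.11 (Kmt2e) to 0.11 (Kmt2a). All 5 intervals lay within 1.2-fold at 12 h and 3 of 5 at 24 h, beside 63.2% and 58.6% of all genes. Kmt2b and Kmt2c, the other members, had 96 h values of 0.061 and 0.049, and Kmt2d 0.055.

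SWI/SNF and ISWI genes held their level at 12 h, with 14 of 16 intervals within 1.2-fold (63.2% of all genes). There limma called 0, with 1 higher and 1 lower at an unadjusted p of 0.05, and edgeR and DESeq2 called 0. At 96 h 5 fell and 2 rose, beside 17.3% lower and 16.5% higher of all genes. The ATPases Smarca4, Smarca2 and Smarca5 did not pass at any time. Smarca4 (Brg1) had a 96 h log2 fold of 0.066 (interval -0.02 to 0.15), Smarca2 (Brm) -0.041 (interval -0.13 to 0.044) and the ISWI ATPase Smarca5 -0.037 (interval -0.13 to 0.056). Smarca4 exceeded Smarca2 per kb of exon by a ratio of 3.71 to 4.20 at 0 h and 4.22 to 4.43 at 96 h.

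Falls at 96 h were among accessory and core subunits. Smarcd2 (mm10 chr11:106263171-106272972, minus strand), the most abundant of the 3 alternative Smarcd subunits, had scaled reads of 1894, 1737 and 1797 at 0 h, 1756, 1745 and 1742 at 12 h, 1736, 1657 and 1703 at 24 h, and 1532, 1574 and 1584 at 96 h. The 96 h libraries lay below all others. Smarcd2 fell 1.16-fold at 96 h (log2 -0.21, SE 0.035, adjusted p = 8.59e-05, limma). In Neo cells it had 58.0 and 57.0 FPKM against 48.1 and 49.6 in Pax7 cells, again without overlap (log2 -0.24, SE 0.032, adjusted p = 0.0118). That call was lost without the first Pax7 library (adjusted p = 0.0667) and under scaling to library totals (adjusted p = 0.0517). The 2 tables list different transcripts of Smarcd2, the FPKM one covering a shorter gene body.

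Smarcb1, a core subunit, had scaled reads of 1018, 983 and 957 at 0 h and 917, 882 and 867 at 96 h. Its groups did not overlap and it fell at 96 h (log2 -0.15, SE 0.036, adjusted p = 0.00293, limma). It also fell in Pax7 cells, from 6.58 and 6.45 to 5.49 and 5.65 FPKM (log2 -0.22, SE 0.032, adjusted p = 0.0136), a call lost without 3 of the 4 libraries in turn (adjusted p up to 0.0705) and with library totals (adjusted p = 0.0724). Smarce1 fell at 96 h (log2 -0.12, adjusted p = 0.0234), with the call lost without any 1 of 4 libraries.

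Smarcd3 had scaled reads of 104, 96.3 and 94.2 at 0 h and 81.6, 82.4 and 75.4 at 96 h and fell at 96 h (log2 -0.30, SE 0.067, adjusted p = 0.00188, limma). Of its annotated exon bases, 48.2% lie under exons of other genes, chiefly Chpf2 on the opposite strand, and reads were counted without strand. Chpf2 itself had a 96 h log2 value of 0.094 (adjusted p = 0.113). Smarcd1, the other alternative subunit, was not called at 96 h (log2 -0.10, interval -0.22 to 0.016). The ratio of Smarcd2 to Smarcd1 per kb was 12.8 to 14.1 at 0 h and 12.3 to 12.4 at 96 h.

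Smarcc2, a scaffold subunit, was called in both systems with opposite signs. It had scaled reads of 925, 966 and 979 at 0 h and 865, 889 and 902 at 96 h, and fell at 96 h (log2 -0.11, SE 0.036, adjusted p = 0.022, limma). Neo cells had 3.52 and 3.33 FPKM and Pax7 cells 4.24 and 4.37, where it rose (log2 0.32, SE 0.042, adjusted p = 0.0107). Neither pair of groups overlapped. The 96 h call was lost without any 1 of 4 libraries (adjusted p 0.055 to 0.0914). Its paralogue Smarcc1 passed in no comparison (96 h log2 0.083, Pax7 against Neo log2 0.071).

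Upward calls in this family were few. Smarcad1, an ATPase of the wider SNF2 family, rose at 96 h (log2 0.18, SE 0.033, adjusted p = 0.00033, limma) and in Pax7 cells (log2 0.20, SE 0.046, adjusted p = 0.0359), where the call was lost without any 1 library (adjusted p 0.0761 to 0.127). Arid2, the subunit that marks PBAF complexes, rose at 24 h (log2 0.19, SE 0.044, adjusted p = 0.00492) and 96 h (log2 0.13, SE 0.044, adjusted p = 0.0312) with a Pax7 against Neo value of -0.067. Its 96 h call was lost without any 1 of 3 libraries (adjusted p 0.0822 to 0.136) and with no filter on low values (adjusted p = 0.0557). Arid1a and Arid1b, which mark BAF complexes, passed nowhere, with 96 h log2 folds of 0.028 and 0.017, nor did Smarcal1 (0.028) or the pseudogene Smarca5-ps (0.012), whose reads may in part be those of Smarca5. Smarca4 (log2 0.18, SE 0.035, adjusted p = 0.0274) and Smarca2 (log2 0.21, SE 0.039, adjusted p = 0.023) rose in Pax7 cells, and both calls were lost without any 1 library. The FPKM table lists a short transcript at the 3′ end for Smarca2, so its value covers only that end of the gene.

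Of 9 Chd genes 3 rose at 12 h and at 24 h, beside 2.92% and 5.66% of all genes higher. Chd3, an ATPase of NuRD (mm10 chr11:69343273-69369426, minus strand), had scaled reads of 299, 321 and 332 at 0 h, 413, 392 and 392 at 12 h, 388, 389 and 405 at 24 h, and 375, 374 and 359 at 96 h. All induced libraries lay above all uninduced ones. Chd3 rose 1.26-fold at 12 h (log2 0.33, SE 0.044, adjusted p = 3.15e-05, limma), 1.24-fold at 24 h (SE 0.044) and 1.16-fold at 96 h (SE 0.044). It had 1.64 and 1.65 FPKM in Neo and 2.02 and 2.01 in Pax7 cells (log2 0.28, SE 0.032, adjusted p = 0.00862), a call lost without the second Pax7 library (adjusted p = 0.0519).

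Chd7, mutated in CHARGE syndrome, had scaled reads of 855, 923 and 919 at 0 h, 978, 1089.5 and 1054 at 12 h, 1118, 1125 and 1035 at 24 h, and 972, 1039 and 1005 at 96 h. All 9 induced libraries lay above the 3 at 0 h, and it rose at 12 h (log2 0.21, SE 0.045, adjusted p = 0.00477), 24 h (log2 0.28, SE 0.045, adjusted p = 0.000156) and 96 h (log2 0.16, SE 0.045, adjusted p = 0.00831, limma), the last call being lost without the second 96 h library (adjusted p = 0.0533). Chd5, a NuRD ATPase found mainly in neurons, rose at 12 h (log2 0.21, SE 0.047, adjusted p = 0.00754) and 24 h (log2 0.18, SE 0.047, adjusted p = 0.0145), calls that each fell out without 2 single libraries, and its 96 h value did not pass (log2 0.10). In Pax7 cells Chd3, Chd4, Chd5, Chd6 and Chd7 rose, 5 of 9 beside 18.1% of all genes higher, by log2 0.16 (Chd4) to 0.30 (Chd5). Chd4, Chd6 and Chd7 each lost the call without any 1 library, and Chd6 also without the filter (adjusted p = 0.0691). Chd4, the most abundant Chd gene per kb, had a 96 h value of 0.026 (interval -0.044 to 0.10), and Chd8 rose at 96 h (log2 0.15, adjusted p = 0.0493), a call lost without any 1 of 6 libraries and in edgeR (adjusted p = 0.0514). Chd1, Chd2 and Chd9 were called in no comparison.

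Over the 4 times 4 of 6 tested genes of DNA methylation changed, beside 30.3% of all genes, with Tet1 and Tet3 higher and Tet2 and Dnmt3a lower at their largest difference from 0 h. With no filter on low values Tet3 alone kept that call (adjusted p = 0.0724 for Dnmt3a, 0.0994 for Tet1 and 0.0751 for Tet2). The call over the 4 times was also lost without any 1 of 10 libraries for Dnmt3a, 6 for Tet1 and 3 for Tet2. Tet3, one of the dioxygenases that oxidise methylcytosine, had scaled reads of 399, 437 and 472 at 0 h, 486, 544 and 532 at 12 h, 575, 553 and 484 at 24 h, and 494, 519 and 557 at 96 h. The groups at 12 h, 24 h and 96 h all lay above 0 h. Tet3 rose at 12 h (log2 0.26, SE 0.065, adjusted p = 0.0169), 24 h (log2 0.30, SE 0.065, adjusted p = 0.00294) and 96 h (log2 0.26, SE 0.065, adjusted p = 0.00344, limma), the first call being lost without any 1 of 4 libraries and without the filter (adjusted p = 0.0743). Its Pax7 against Neo value did not pass (log2 0.17, adjusted p = 0.0922). Tet1 rose at 24 h (log2 0.24, SE 0.064, adjusted p = 0.0138) and Tet2 fell from 24 h to 96 h (log2 -0.22, SE 0.066, adjusted p = 0.032), both calls being lost on leaving out single libraries.

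Dnmt1 held its level, with a 96 h log2 of 0.038 (interval -0.037 to 0.11) and a Pax7 against Neo log2 of 0.035 (interval -0.042 to 0.11). The de novo enzyme Dnmt3a fell from 24 h to 96 h (log2 -0.14, SE 0.041, adjusted p = 0.0292, limma), a call lost without any 1 of 5 libraries, and Dnmt3b was called nowhere (96 h log2 0.069, interval -0.15 to 0.29). Limma called 0 of 6 tested genes of this group in Pax7 against Neo, beside 36.6% of all genes. With an unadjusted p of 0.05, 2 were higher and 0 lower, beside 3274 and 3308 of all 13393 genes. Reads of Dnmt1 exceeded those of Dnmt3a per kb by a ratio of 12.7 to 14.6 at 0 h and 14.5 to 15.2 at 96 h.

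Of the acetyltransferases, Crebbp (CBP) rose at 96 h (log2 0.20, SE 0.057, adjusted p = 0.0092, limma), with scaled reads of 499, 530.1 and 504 at 0 h and 572, 597 and 595 at 96 h. Ep300 (p300) had a 96 h log2 of 0.17 that did not pass (adjusted p = 0.0877) and rose in Pax7 cells (log2 0.19, SE 0.045, adjusted p = 0.0391), a call lost without any 1 library and without the filter on low values (adjusted p = 0.0523). The ratio of Ep300 to Crebbp per kb was 0.388 to 0.432 at 0 h and 0.392 to 0.417 at 96 h, ranges that overlap.

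Among histone deacetylases, Hdac4, Hdac10 and Hdac11 rose and Hdac2 fell in at least 1 comparison with 0 h. Hdac11, the sole class IV enzyme, had 1.73 and 1.96 FPKM in Neo cells and 2.83 and 2.72 in Pax7 cells. The groups did not overlap, and the rise of 1.48-fold (log2 0.57, SE 0.071, adjusted p = 0.0105, limma) stayed called without each single library. Over time it had scaled reads of 314, 302 and 275 at 0 h, 350.2, 315 and 351 at 12 h, 386, 359.9 and 347 at 24 h, and 322, 311 and 324 at 96 h, highest at 24 h. It rose at 12 h (log2 0.19, SE 0.055, adjusted p = 0.0413) and 24 h (log2 0.29, SE 0.055, adjusted p = 0.000745) and then fell from 24 h to 96 h (log2 -0.19, SE 0.055, adjusted p = 0.0248). The 12 h call was lost without any 1 of 8 libraries and the fall without any 1 of 5, and with no filter on low values the adjusted p was 0.0934 at 12 h and 0.0585 from 24 h to 96 h.

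Hdac2 had scaled reads of 2208, 2111 and 2171 at 0 h and 1888, 1959 and 1990.3 at 96 h and fell at 96 h (log2 -0.15, SE 0.036, adjusted p = 0.00226, limma), with no overlap. Its paralogue Hdac1 did not pass (log2 -0.073, interval -0.19 to 0.045), and Hdac2 exceeded it per kb by a ratio of 7.93 to 9.12 at 0 h. Hdac10 (log2 0.29, SE 0.077, adjusted p = 0.00622) and Hdac4 (log2 0.21, SE 0.056, adjusted p = 0.0062) rose at 96 h. About 22.4% of annotated Hdac4 exon bases and 17.9% of those of Hdac11 lie under exons of other genes, chiefly on the opposite strand. Hdac3, Hdac5, Hdac6, Hdac7, Hdac8 and Hdac9 were called in no comparison that tested them, the 96 h values running from -0.084 (Hdac5) to 0.25 (Hdac8, interval -0.035 to 0.53).

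Arid3a, a DNA-binding ARID protein (mm10 chr10:79927043-79955018, plus strand), had the largest fitted fold of the tested members in each of the 12 h, 24 h and 96 h comparisons, at a very low level. It had scaled reads of 17.1, 16.2 and 14.5 at 0 h, 23.0, 26.1 and 22.7 at 12 h, 24.6, 24.4 and 25.2 at 24 h, and 28.7, 18.7 and 31.6 at 96 h. All induced libraries lay above all at 0 h, with the second 96 h library the lowest of them. Arid3a rose at 12 h (log2 0.56, SE 0.14, adjusted p = 0.0179), 24 h (log2 0.61, SE 0.14, adjusted p = 0.00578) and 96 h (log2 0.66, SE 0.14, adjusted p = 0.00115, limma). The 12 h call was lost without any 1 of 3 libraries (adjusted p 0.0529 to 0.0815) and with no filter (adjusted p = 0.0777). Its FPKM was 0.0707 and 0.0522 in Neo and 0.191 and 0.188 in Pax7 cells (log2 0.85 on a scale with 0.1 FPKM added), where its gene body lies inside a longer interval listed for Bc1 on the other strand. Arid5b, which targets the demethylase Phf2 to DNA, rose in Pax7 cells from 0.293 and 0.282 to 0.497 and 0.466 FPKM (log2 0.59, SE 0.057, adjusted p = 0.00655), without overlap and with each single library left out. Over time it did not pass (96 h log2 0.059, interval -0.056 to 0.17). Arid3b, Arid4a, Arid4b and Arid5a were called in no comparison that tested them, with 96 h values from -0.029 (Arid4a) to 0.27 (Arid3b, interval -0.08 to 0.62).

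**Figure D4:**
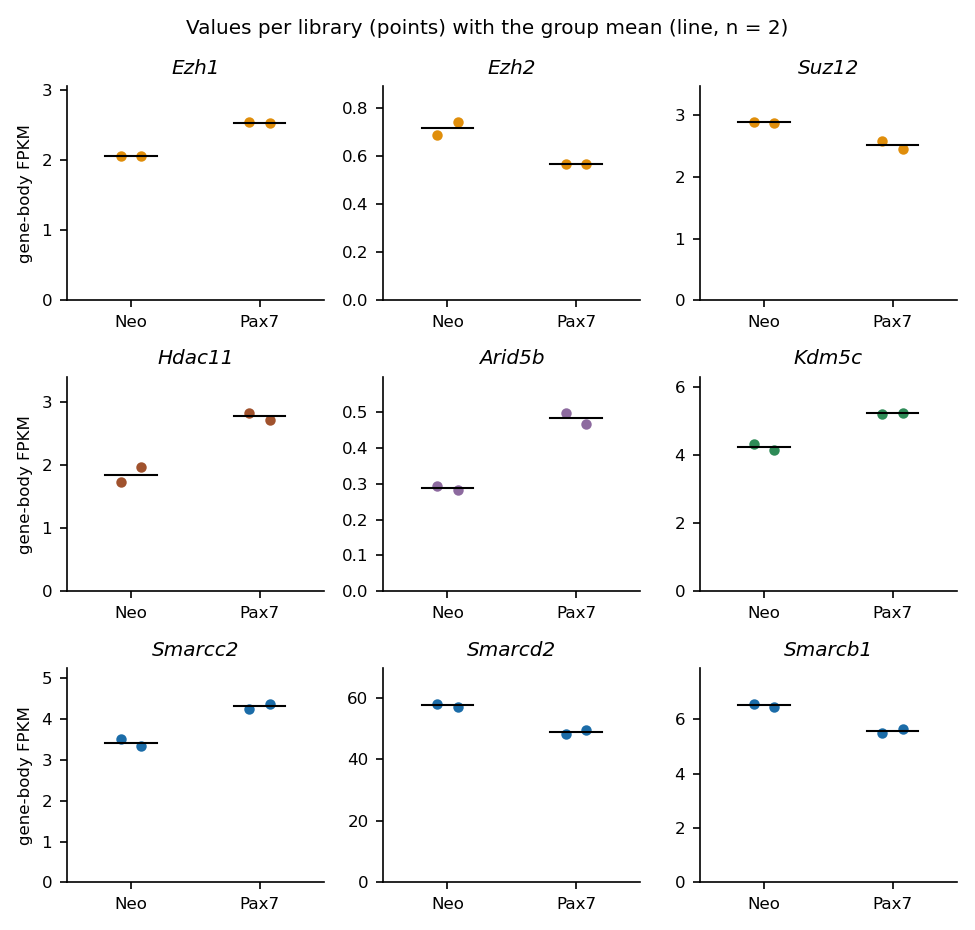
Gene-body FPKM of 9 members in the 2 Neo and 2 Pax7 libraries (points), with each group mean (line) and vertical axes from 0. Groups do not overlap in any panel, as in 55 of the 72 tested members and 9887 of all 13393 genes. Ezh1, Hdac11, Arid5b, Kdm5c and Smarcc2 are higher with Pax7, and Ezh2, Suz12, Smarcd2 and Smarcb1 lower.

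The induced and the constitutive system share no library, so their calls can be set against each other. Arid3a is left out of these counts, since the filter set its direction in Pax7 cells. Of the other 8 members called at 12 h, 6 were also called in Pax7 cells, 75% of the 12 h list and 28.6% of the 21 in Pax7 cells, against 61.1% and 12.4% over all genes. These were Chd3, Chd5, Chd7, Ezh1, Hdac11 and Kdm5c, each in the same direction. The same 6 were shared at 24 h, 60.0% of 10, against 53.7% over all genes. At 96 h 8 were shared, 40.0% of 20 and 38.1% of 21, beside the 45.2% and 47.3% over all genes. Of these 7 had the same direction and Smarcc2 the opposite. Over all genes called in both systems the share with the same direction was 82.5% at 12 h, 83.0% at 24 h and 87.4% at 96 h. Across the 12 h, 24 h, 96 h and Pax7 comparisons, 4 of these members were called each time, namely Chd3, Chd7, Ezh1 and Kdm5c.

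**Figure D5:**
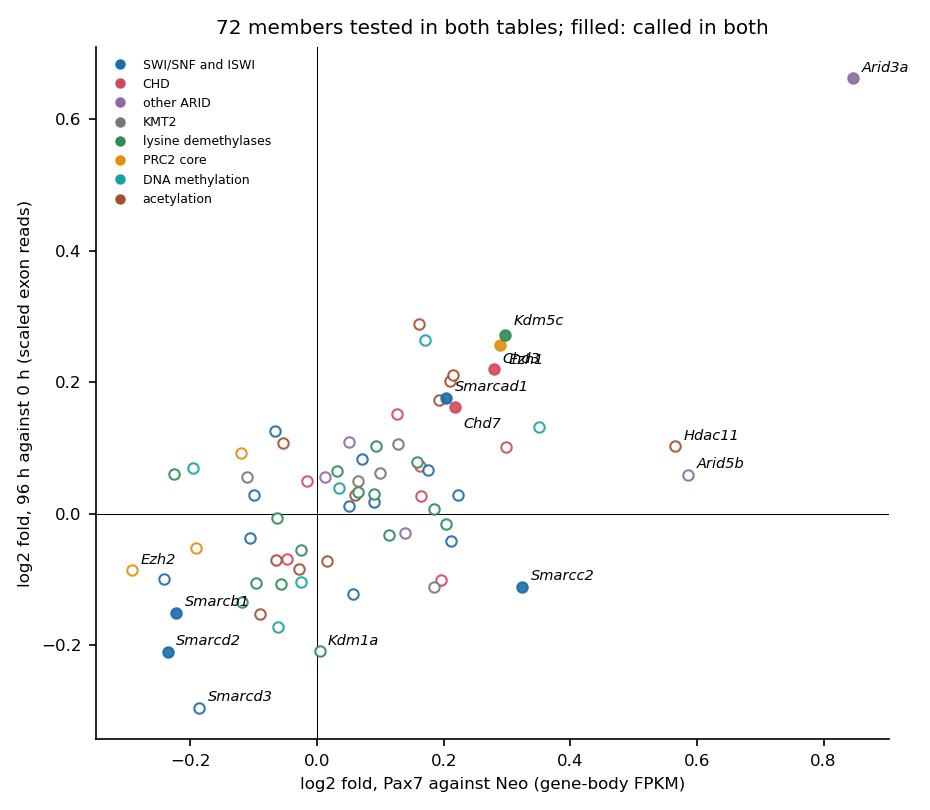
Log2 fold in Pax7 against Neo (horizontal, gene-body FPKM) and at 96 h against 0 h (vertical, scaled exon reads) for the 72 members tested in both, coloured by group. Filled points were called in both; Smarcc2 is the 1 of these 9 with opposite signs, and Arid3a, also among them, was tested in Pax7 against Neo through its Pax7 libraries alone.

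Partners of these enzymes and further chromatin enzymes, 113 genes in 8 lists (111 tested in Pax7 against Neo), gave few calls early on. The Kmt5 enzymes, under their older symbols, were counted among these 113. Whether calls in these lists held without single libraries or under other settings was not examined. At 12 h 1 rose and 2 fell (2.65% of 113, beside 6.53% of all genes), and at 24 h 2 rose and 1 fell (2.65%, beside 13.6%). At 96 h 18 rose and 10 fell (24.8%, beside 33.8%), and in Pax7 cells 11 rose and 25 fell (32.4%, beside 36.6%). Paxip1, a partner of KMT2C and KMT2D, fell at 12 h (log2 -0.15, adjusted p = 0.0313, limma), 24 h (log2 -0.19, adjusted p = 0.00273) and 96 h (log2 -0.27, adjusted p = 3.07e-05) and in Pax7 cells (log2 -0.17, adjusted p = 0.0288). Among BAF subunits, Dpf3 (log2 -0.48, adjusted p = 0.000827) and the neuronal Actl6b (log2 -0.45, adjusted p = 0.00172) fell at 96 h, while Ss18 rose in Pax7 cells (log2 0.61, adjusted p = 0.00279).

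Of 12 COMPASS partners 4 fell in Pax7 cells and 0 rose by limma (18.5% lower and 18.1% higher of all genes), with Wdr5 at log2 -0.28, as did 4 of 11 heterochromatin genes, Ehmt2 (log2 -0.29, adjusted p = 0.00668), Cbx1, Suv39h1 and Suv39h2. The PRC2 partner Jarid2 fell at 96 h (log2 -0.13, adjusted p = 0.0464) and the PRC1 subunit Cbx8 rose there (log2 0.18, adjusted p = 0.0221) and in Pax7 cells (log2 0.34, adjusted p = 0.00564). The acetyltransferase Kat2a rose at 24 h (log2 0.15, adjusted p = 0.0391) and 96 h (log2 0.29, adjusted p = 4.66e-05). The lysine 4 methyltransferase Setd7 rose at 96 h (log2 0.24, adjusted p = 3.04e-05) and in Pax7 cells (log2 0.24, adjusted p = 0.0236), and the arginine methyltransferase Prmt1 fell in Pax7 cells (log2 -0.43, adjusted p = 0.00697). ISWI partners Baz1b (log2 0.15, adjusted p = 0.00483) and Bptf (log2 0.14, adjusted p = 0.0185) rose at 96 h, and the NuRD histone chaperone Rbbp4 fell in Pax7 cells (log2 -0.29, adjusted p = 0.00564).

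Called members that rose had longer transcripts than those that fell. At 96 h the called members that rose had a median exon length of 7474 bases and those that fell 2823, and in Pax7 against Neo the medians were 6059 and 2685. Across the 76 tested members Spearman's rho between length and log2 fold was 0.26 at 96 h (0.28 at 12 h, 0.33 at 24 h and, over 72 members, 0.36 in Pax7 against Neo), beside 0.053, 0.044, 0.067 and 0.11 over all genes. These are correlations across genes of the same libraries, which are not independent replicates, and the part of length in the calls was not tested. In the authors' deposited table, members with a false discovery rate under 0.05 numbered 6 at 12 h, 8 at 24 h and 13 at 96 h against 0 h. Over all genes 434, 888 and 2784 passed in these comparisons. In Pax7 against Neo 0 members passed there, beside 24 genes in all. The 6 members at 12 h, in the authors' deposited table, were Chd3, Chd5, Chd7, Ezh1, Kdm5c and Tet3.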

How the data were processed

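Per the file headers, the authors counted reads per gene with HOMER on mm10, without a strand option. The signal values of the 12 ER-Pax7 libraries are exon reads that the authors scaled to a common library total, per the file headers. The FPKM values of the 4 Neo and Pax7 libraries were computed by the authors over whole gene bodies, per the file headers. The deposited log2 fold changes, p-values and FDR came from the authors' edgeR step, per the file headers. The submitters' processing notes list TopHat, HOMER and edgeR, with no version of any.

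From these values, log2(value divided by a TMM factor, plus 1 scaled read or 0.1 FPKM) was fitted with limma 3.58.1 (R 4.3.3, empirical Bayes with trend), and p-values were adjusted by Benjamini-Hochberg over all genes that reached 1 scaled read in at least 3 libraries or 0.1 FPKM in at least 2. TMM factors are trimmed means of M values, which correct library totals for composition. One fit held all 12 ER-Pax7 libraries, and a separate one the Neo and Pax7 libraries, since the tables were normalized separately. The added 1 scaled read and 0.1 FPKM understate the folds of low genes. Low scaled values were whole multiples of the worth of 1 read (100% within 0.1 read), which gave whole reads. On those, edgeR 4.0.16 (quasi-likelihood) called 5130 of 15188 genes at 96 h and DESeq2 1.42.0 called 5268. The fits were tested on simulated data. The other settings tried were the pseudocount, the filter, the scaling, a replicate block and each library left out.

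Members called at any time, the extremes of the calls in Pax7 against Neo, paralogue sets and members below the filter are named. So are up to 4 genes per list of partners and further chromatin enzymes. Members, lists and this rule were chosen with earlier results of these data known. Intervals are 95% and not adjusted. The 2 tables list different transcripts for 14 of the 79 members. Promoters are from RefSeq. Coordinates are as the files give them.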

Additional observations from a re-analysis of the deposited data

Results flagged for a closer look

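In 5 members every Pax7 library lay on one side of every Neo library while every 96 h library lay on the opposite side of every 0 h library. In Pax7 against Neo the groups did not overlap in 55 of 72 members and 9887 of 13393 genes. At 96 h they did not overlap in 33 of 76 members and 6977 of 15188 genes. How many of all genes lay on opposite sides was not counted. The difference between the 2 systems was not tested in any of the 5 members. Smarcc2 had a log2 value of 0.32 in Pax7 against Neo and -0.11 at 96 h, and was the only 1 of the 5 called in both, the 96 h call being lost without any 1 of 4 libraries. Chd6 had 0.20 in Pax7 against Neo, where it was called (limma, adjusted p = 0.0479, lost without any 1 library), and -0.10 at 96 h (adjusted p = 0.0865). Arid2 had -0.067 in Pax7 against Neo and 0.13 at 96 h, where it was called, though not without any 1 of 3 libraries. Eed (-0.12 in Pax7 against Neo, 0.092 at 96 h) and Arid4a (0.14 and -0.029) were called in neither.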

How the results depend on the processing

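Members called from 24 h to 96 h numbered 4 with no filter on low values and 11 with a replicate block, and those in Pax7 against Neo numbered 11 with the replicate block, against 7 and 22. Over all genes the counts were 1586, 2515 and 3305, against 1921 and 4906. Leaving out 1 library at a time gave 5 to 10 members at 12 h, 9 to 15 at 24 h and 16 to 26 at 96 h. It gave 1 to 9 from 24 h to 96 h and 15 to 24 over the 4 times. In Pax7 against Neo such fits called fewer members, and fewer genes over all. There the lone library left in a group is assumed to vary like the other group. Over all genes the ER-Pax7 fits with 1 library left out gave 709 to 1022 calls at 12 h, against 992. They gave 1458 to 2193 at 24 h and 4141 to 5335 at 96 h, against 2063 and 5129. The bound of 1.5-fold held 67 members in Pax7 against Neo. In 3 genes the largest difference from 0 h over the 4 times was counted as reversed: Chd2 to 0.12 and Kmt2e to 0.13 without the third 0 h library, and Kdm5b to -0.13 without the first. With each library left out, these ran from -0.12 to 0.12 for Chd2, -0.19 to 0.13 for Kmt2e and -0.13 to 0.19 for Kdm5b. Under library totals the calls over all genes in Pax7 against Neo were 2599 higher and 1241 lower, against 2424 and 2482, and at 24 h 1045 and 1048, against 860 and 1203. Same-numbered libraries deviated together with r of -0.082 to 0.14 in 18 ER-Pax7 pairs, and differently numbered ones with r of -0.13 to 0.098. In Neo and Pax7 the values were 0.037 and -0.037, which 2 libraries a group force to mirror each other. Whether the numbers pair the samples cannot be told from these values, and the reported fits did not pair them. With the replicate block 11 members were called at 12 h, 16 at 24 h and 28 at 96 h. Over all genes the block gave 1246, 2538 and 5755 calls, against 992, 2063 and 5129. Across all settings, 226 values of single members lost the call, 91 gained it, 3 were counted as reversed and 10024 fell in none of these classes. The 3 do not hold every change of sign, since folds near 0 also changed sign between settings. In Pax7 against Neo 2 libraries a group limited what could be detected.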
